A study of Homo sapiens with 9 samples.

Results

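Aminoacyl-tRNA synthetases attach each amino acid to its transfer RNAs, the step that supplies the ribosome. The genes described here are 35 human synthetases, 19 mainly cytosolic and 16 mitochondrial, and 3 scaffold proteins of the cytosolic multi-synthetase complex, 38 genes in all, chosen by gene symbol. Of these, 31 had a probe set annotated to that gene alone among 22011 probe sets in the table: 18 of the 19 cytosolic synthetases, 12 of the 16 mitochondrial ones and 1 of the 3 scaffold proteins. FARSB, EARS2, SARS2, VARS2 and YARS2 lay on probe sets annotated to several genes and are not described further, and AIMP2 and EEF1E1 were on no probe set of the annotation used here. No filter on low values was applied, so all 31 entered the test.

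RNA came from HEK293 cells, an established line of human embryonic kidney origin. Cells had been transfected 48 h earlier with Stealth siRNA, a chemically modified small interfering RNA, against DBC1 (siDBC1), against ZNF326, also called ZIRD (siZNF326), or with a control siRNA (siCTR), and was measured on Affymetrix whole-transcript arrays. Each group held 3 arrays from independent experiments, 9 arrays in all, and all groups were grown in the same serum-containing medium with added glutamine. DBC1 and ZNF326 are studied together as the DBIRD complex, which links RNA polymerase II to messenger ribonucleoprotein particles. CCAR2, the gene of DBC1, had log2 values of 6.50, 6.54 and 6.65 in siDBC1 against 7.67, 7.67 and 7.84 in siCTR, a fall of 1.16 (limma adjusted p = 0.0116). ZNF326 varied widely in siDBC1, where it was not the target, with 6.24, 5.64 and 7.32 (SD 0.85). In the arrays labelled siZNF326 it had 6.12, 5.56 and 5.81, against 5.25, 5.64 and 5.76 in siCTR. The difference was 0.28, with a wide 95% interval of -0.63 to 1.20 that also includes a lower level. The depletion that this label names was thus not seen in the transcript at this probe set. A fall as large as that of CCAR2 in siDBC1 lay outside the interval, and a small one, of up to 0.63, inside it. Below, siZNF326 names the arrays by that label.

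Most synthetases exist as a cytosolic and a mitochondrial enzyme made from separate nuclear genes, while GARS1 and KARS1 each serve both compartments. In mammals several cytosolic synthetases are held with the scaffold proteins AIMP1, AIMP2 and EEF1E1 in the multi-synthetase complex, and the others act outside it. When uncharged tRNA or other stress leads to phosphorylation of initiation factor eIF2, translation of the transcription factor ATF4 goes up, and ATF4 activates genes of amino acid synthesis, amino acid uptake and tRNA charging. Many cytosolic synthetase genes are known ATF4 targets. Here 12 were listed as commonly reported targets (AARS1, CARS1, EPRS1, GARS1, IARS1, LARS1, MARS1, NARS1, SARS1, TARS1, WARS1 and YARS1), and the other 6 cytosolic ones measured were FARSA, HARS1, KARS1, QARS1, RARS1 and VARS1.

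ATF4 binds with C/EBP partners at a composite site, the C/EBP-ATF response element, whose core is TGATGNAA (N stands for any base). This core was the only pattern searched, on both strands, in RefSeq promoter windows that run from 250 bases before to 50 bases after an annotated transcript start on build GRCh38.p14. Of the 38 genes, 33 had at least 1 window, matched by symbol. The core was present for 7 of 16 cytosolic synthetases (43.8%), for 1 of 14 mitochondrial ones (7.14%, YARS2) and for 0 of 3 scaffold proteins, against 4.46% of all 27305 genes and 3.62% of all 35116 windows. The 7 were AARS1, CARS1, GARS1, IARS1, MARS1, NARS1 and TARS1. They are 7 of the 10 reported ATF4 targets that had a window, and 0 of the 6 other cytosolic synthetases with a window, FARSB included, had the core. A gene counted if any of its windows held the core, and the 10 targets had 15 windows against 6 for the 6 others. CARS1, GARS1 and TARS1 each also had a window without the core. The windows of EPRS1, SARS1 and WARS1, among others, all lacked it. LARS1, VARS1 and YARS1 had no window.

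The stretches around each match are shown in the direction of the core, with the core in capitals and 11 bases on each side. MARS1, AARS1, CARS1 and GARS1 are among the members lowest against siCTR below. So are WARS1 and SARS1, which had no match, and YARS1, which had no window.
MARS1, chr12:57488053-57488082, minus strand: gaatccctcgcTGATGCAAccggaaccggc
AARS1, chr16:70289675-70289704, plus strand: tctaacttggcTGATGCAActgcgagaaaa
CARS1, chr11:3057407-3057436, plus strand: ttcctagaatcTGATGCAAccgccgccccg
GARS1, chr7:30594834-30594863, minus strand: ggctcggagcaTGATGAAAtcgccgcgtaa
IARS1, chr9:92293692-92293721, plus strand: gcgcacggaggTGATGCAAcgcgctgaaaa
NARS1, chr18:57621804-57621833, minus strand: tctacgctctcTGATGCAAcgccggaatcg
TARS1, chr5:33440956-33440985, minus strand: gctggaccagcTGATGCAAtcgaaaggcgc
YARS2, chr12:32756076-32756105, minus strand: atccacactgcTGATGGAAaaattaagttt

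In 6 of the 7 cytosolic genes the letters were TGATGCAA, counted after the matches were seen. The same letters stood in 0.866% of all windows, in 0 mitochondrial synthetase windows, and in windows of CEBPG, CHAC1, JDP2 and SLC1A5 among 25 other genes of the ATF4 program with a window. Counted from the annotated start as position 0, the core ran from -187 to -180 in AARS1, from -33 to -26 in GARS1, from -13 to -6 in IARS1, from -4 to 3 in MARS1, from -2 to 5 in CARS1, from 2 to 9 in TARS1 and from 14 to 21 in NARS1. It pointed against transcription in 6 of these 7 genes and along it in NARS1. A match describes letters only and shows no binding.

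Whole windows follow for the genes that carry the results below: MARS1, the only called member, then AARS1, CARS1 and GARS1, and as a contrast HARS1, whose window has no match. They are given 5′ to 3′ on the gene's strand, with any match to the core, on either strand, in capitals. For CARS1 and GARS1 only the window with the match is given.
MARS1, chr12:57487818-57488117, plus strand: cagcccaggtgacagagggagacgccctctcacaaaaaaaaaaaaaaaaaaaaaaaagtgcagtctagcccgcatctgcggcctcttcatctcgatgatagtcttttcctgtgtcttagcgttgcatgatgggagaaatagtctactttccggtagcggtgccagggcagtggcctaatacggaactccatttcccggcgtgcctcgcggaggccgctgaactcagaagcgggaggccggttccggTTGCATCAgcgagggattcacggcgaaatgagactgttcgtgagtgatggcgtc
AARS1, chr16:70289457-70289756, minus strand: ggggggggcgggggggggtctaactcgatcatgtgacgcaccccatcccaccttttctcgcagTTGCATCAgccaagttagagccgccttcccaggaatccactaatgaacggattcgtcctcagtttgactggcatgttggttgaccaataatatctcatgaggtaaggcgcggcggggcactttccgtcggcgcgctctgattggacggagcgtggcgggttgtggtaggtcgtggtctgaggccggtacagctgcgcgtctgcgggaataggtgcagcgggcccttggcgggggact
CARS1, chr11:3057374-3057673, minus strand: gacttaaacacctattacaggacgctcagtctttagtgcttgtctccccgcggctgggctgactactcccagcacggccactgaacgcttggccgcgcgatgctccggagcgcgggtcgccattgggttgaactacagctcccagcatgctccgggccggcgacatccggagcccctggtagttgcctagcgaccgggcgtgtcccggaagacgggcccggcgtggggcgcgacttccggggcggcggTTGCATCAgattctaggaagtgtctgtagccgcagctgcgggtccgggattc
GARS1, chr7:30594628-30594927, plus strand: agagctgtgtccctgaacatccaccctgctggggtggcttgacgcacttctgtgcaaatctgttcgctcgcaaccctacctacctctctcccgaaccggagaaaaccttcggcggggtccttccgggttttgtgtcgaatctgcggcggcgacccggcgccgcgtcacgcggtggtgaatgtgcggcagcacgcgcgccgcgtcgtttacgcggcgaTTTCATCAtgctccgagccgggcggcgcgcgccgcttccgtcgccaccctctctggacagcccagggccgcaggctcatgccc
HARS1, chr5:140691321-140691620, minus strand: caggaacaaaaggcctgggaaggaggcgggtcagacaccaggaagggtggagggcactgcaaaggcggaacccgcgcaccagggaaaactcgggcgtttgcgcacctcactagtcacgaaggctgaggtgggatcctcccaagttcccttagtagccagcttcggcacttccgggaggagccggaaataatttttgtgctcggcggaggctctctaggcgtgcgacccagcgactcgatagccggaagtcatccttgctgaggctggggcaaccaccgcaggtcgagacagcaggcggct

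HARS1 and its mitochondrial counterpart HARS2 lie head to head, and their windows share 184 bases, so the HARS1 sequence also holds most of the HARS2 promoter.

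The values are log2 expression values, 1 per probe set and array, so a difference of 1 is a 2-fold difference, and levels are not compared between genes because each probe set has its own response. All 31 members lay above the lower quartile of every array and 30 above the median of every array. Array medians ran from 5.58 to 5.89 in siDBC1, from 5.76 to 5.90 in siZNF326 and from 5.67 to 5.78 in siCTR. The siDBC1 arrays differed among themselves: 30 of 31 members were lowest on replicate 2 and 29 highest on replicate 3, where 57.9% and 55.3% of all genes were. On replicate 1 of siZNF326, 26 of 31 members were the highest of their group, as were 57.4% of all genes. Of 7 genes listed as HEK293 markers, NEFL, VIM, KRT8 and KRT18 lay above the upper quartile of every array. The summed log2 level of all 7 ran from 54.8 to 57.0 in siDBC1, from 57.4 to 59.2 in siZNF326 and from 54.1 to 55.6 in siCTR, and its part in the results was not tested. The 3 measured haematopoietic markers and 3 of 4 fibroblast markers lay below the median of every array. In RNA of whole cultures, less RNA per cell and fewer cells that hold it cannot be told apart.

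The 12 cytosolic synthetases reported as ATF4 targets had lower means than siCTR under both siRNAs, though only MARS1 in siZNF326 passed the adjusted threshold. In siDBC1 the median log2 change was -0.61 for the 12 reported targets (1.53-fold lower), 0.075 for the other 6 cytosolic synthetases and 0.011 for the 12 mitochondrial ones, beside 0.013 over 14232 genes. In the arrays labelled siZNF326 the same medians were -0.64 (1.55-fold lower), 0.022 and 0.17, beside 0.033 over all genes, and the mitochondrial one was 0.030 after quantile normalization. All 12 reported targets had a negative change in both comparisons, from -0.81 (GARS1) to -0.37 (IARS1) in siDBC1 and from -1.07 (CARS1) to -0.24 (EPRS1) in siZNF326. These medians carry no test, since the members and the list of reported targets were chosen with results of these data known. The shared sign of the 12 carries none either, for the same reason. Both comparisons share the siCTR arrays.

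**Figure D1:**
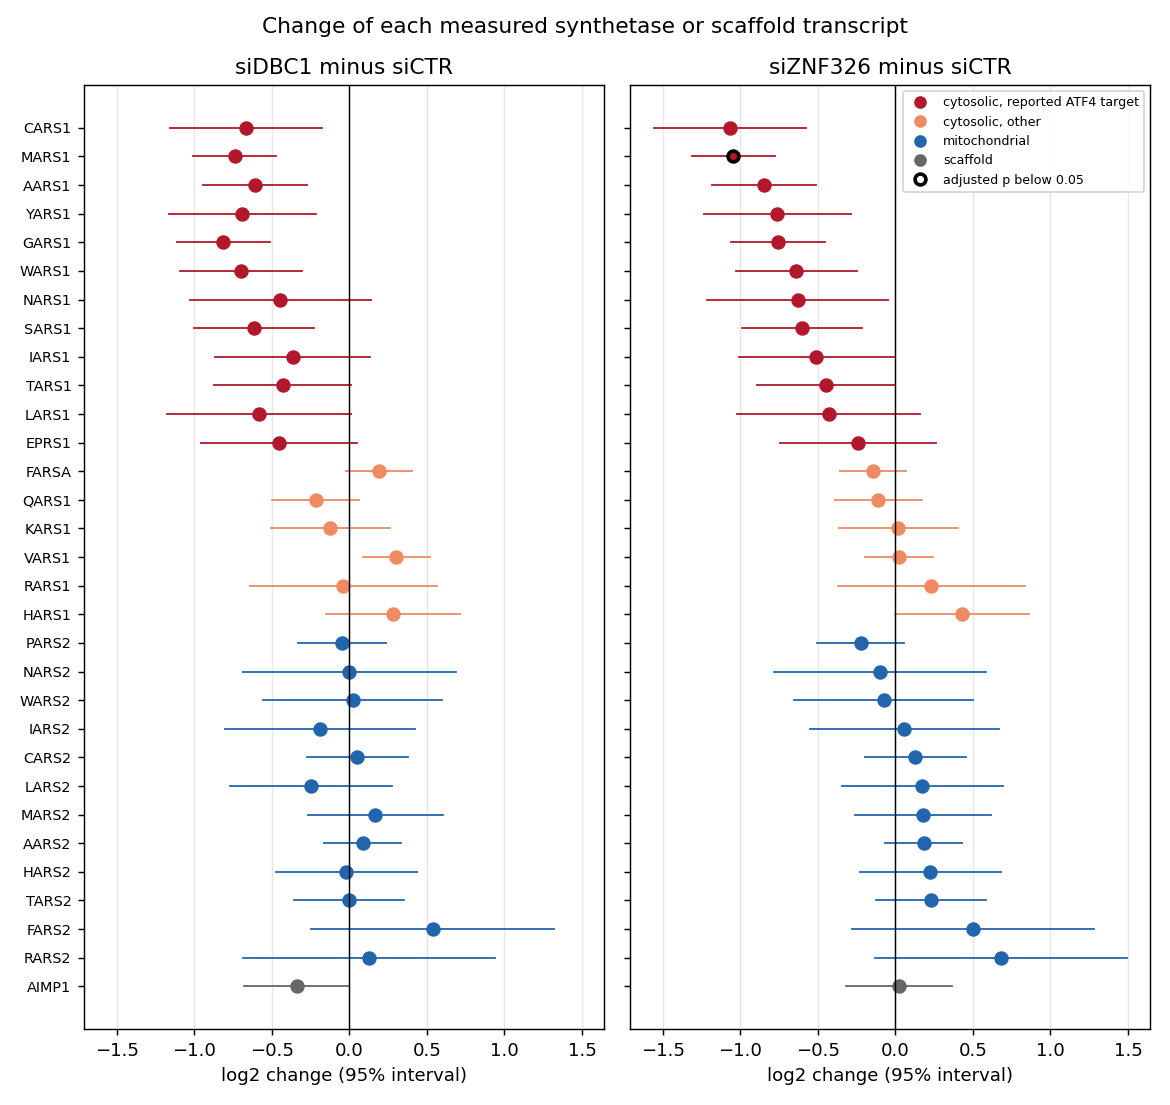
Log2 change of each of the 31 measured genes (points, with 95% intervals of the limma fit) in siDBC1 minus siCTR and in siZNF326 minus siCTR, coloured by set. The 12 reported ATF4 targets lie below 0 in both panels, and MARS1 in siZNF326, ringed, is the only one with an adjusted p below 0.05.

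Of all 31 measured genes, 0 passed an adjusted p below 0.05 in siDBC1 (limma, Benjamini-Hochberg over all probe sets), where 0.0363% of all probe sets did. At an unadjusted p below 0.05, 7 of 18 cytosolic synthetases were lower and 1 was higher in siDBC1, against 2.55% and 3.63% of all probe sets. The count of lower members among all 31 was 7 in this fit and depended on the scaling and on siDBC1 replicate 3: it was 14 with arrays centred on their medians (4.03% of all probe sets), 14 after quantile normalization (4.97%) and 13 without that array (5.86%). In the arrays labelled siZNF326, 1 cytosolic synthetase, MARS1, passed the adjusted threshold, as did 0.15% of all probe sets. At an unadjusted p below 0.05, 10 of 18 cytosolic synthetases were lower and 0 higher there, against 2.52% and 6.13% of all probe sets. This count also moved. Among all 31 members it ran from 7 (without siCTR replicate 1, 2.33% of all probe sets) to 11 (without siDBC1 replicate 2, 3.18%) when 1 array was omitted. It was 12 with arrays centred on their medians (4.70%) and 13 after quantile normalization (5.09%). In the fit as reported, 0 of the 12 mitochondrial synthetases and AIMP1 passed an unadjusted p below 0.05 in either comparison with siCTR. All the cytosolic ones that this fit counted as lower were among the 12 reported targets.

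Arrays of the groups were also set side by side without a model. For 7 of 18 cytosolic synthetases all siDBC1 arrays lay below all siCTR arrays, against 3.66% of all probe sets, and for FARSA and VARS1 they lay above, against 5.18%. In siZNF326 this held for 11 of 18 below, against 5.27% of all probe sets, and for HARS1 above, against 12.9%. Among the 12 mitochondrial synthetases the siDBC1 arrays overlapped siCTR for all 12, while those labelled siZNF326 lay below for PARS2 and above for AARS2, FARS2, HARS2, RARS2 and TARS2.

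MARS1, methionyl-tRNA synthetase, which charges both the initiator and the elongator methionine tRNA and sits in the multi-synthetase complex, was the member with the smallest p in both comparisons. It had 9.26, 8.99 and 9.31 in siDBC1, 8.95, 8.94 and 8.76 in siZNF326 and 9.82, 9.90 and 10.07 in siCTR. Both siRNA groups lay below siCTR without overlap. MARS1 fell by 1.05 in the arrays labelled siZNF326 (SE 0.11, adjusted p = 0.0250), a 2.06-fold lower level, with means of 8.88 ± 0.11 there and 9.93 ± 0.13 in siCTR (SD, 3 arrays each). In siDBC1 the mean was 9.19 ± 0.17 and the difference from siCTR was -0.74 (SE 0.11, adjusted p = 0.170), which did not pass. The change in siZNF326 stayed between -1.10 and -0.98 in fits that each omitted 1 array, but the call held in only 2 of 9 such fits, those without siDBC1 replicate 2 or 3, with adjusted p from 0.0203 to 0.160.

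GARS1, the glycyl-tRNA synthetase of both cytosol and mitochondria, had 7.26, 7.48 and 7.38 in siDBC1, 7.36, 7.63 and 7.30 in siZNF326 and 8.29, 7.98 and 8.29 in siCTR. Both siRNA groups lay below siCTR without overlap. The differences from siCTR were -0.81 in siDBC1 (1.76-fold, adjusted p = 0.172) and -0.76 in siZNF326 (1.69-fold, adjusted p = 0.106). KARS1, the lysyl-tRNA synthetase that also serves both compartments, had differences of -0.12 and 0.018.

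AARS1, alanyl-tRNA synthetase, had 9.45, 9.10 and 9.48 in siDBC1, 9.31, 9.05 and 8.95 in siZNF326 and 9.79, 9.97 and 10.10 in siCTR. CARS1, cysteinyl-tRNA synthetase, had 7.95, 7.56 and 8.16 in siDBC1, 7.87, 7.40 and 7.19 in siZNF326 and 8.45, 8.49 and 8.73 in siCTR. Both genes lay below siCTR on every array of both siRNA groups. For AARS1 the differences were -0.61 in siDBC1 (adjusted p = 0.423) and -0.85 in siZNF326 (adjusted p = 0.106). For CARS1 they were -0.67 in siDBC1 (adjusted p = 0.644) and -1.07 in siZNF326 (2.10-fold, adjusted p = 0.150). The siZNF326 difference of CARS1 was the largest in size of the 31 members in either comparison with siCTR, but its SD there was 0.35, against 0.11 for MARS1, and it did not pass.

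WARS1, tryptophanyl-tRNA synthetase, which is also known as an interferon-gamma-induced gene, had 7.76, 7.46 and 7.997 in siDBC1, 7.998, 7.80 and 7.61 in siZNF326 and 8.31, 8.35 and 8.66 in siCTR. YARS1, tyrosyl-tRNA synthetase, had 9.12, 8.67 and 9.46 in siDBC1, 9.17, 8.78 and 9.09 in siZNF326 and 9.74, 9.64 and 9.94 in siCTR. SARS1, seryl-tRNA synthetase, had 9.81, 9.28 and 9.89 in siDBC1, 9.78, 9.62 and 9.62 in siZNF326 and 10.34, 10.11 and 10.38 in siCTR. None of these groups overlapped siCTR, and in siDBC1 replicate 2 was the lowest array for each of these genes. Their differences from siCTR ran from -0.70 to -0.62 in siDBC1 (adjusted p from 0.425 to 0.589) and from -0.76 to -0.60 in siZNF326 (adjusted p from 0.311 to 0.327). NARS1, asparaginyl-tRNA synthetase, had 8.77, 8.28 and 9.28 in siDBC1, 8.88, 8.42 and 8.47 in siZNF326 and 9.07, 9.18 and 9.41 in siCTR. Its siZNF326 arrays lay below siCTR (-0.63, adjusted p = 0.538), while siDBC1 replicate 3 reached into the siCTR range (-0.45, adjusted p = 0.923).

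**Figure D2:**
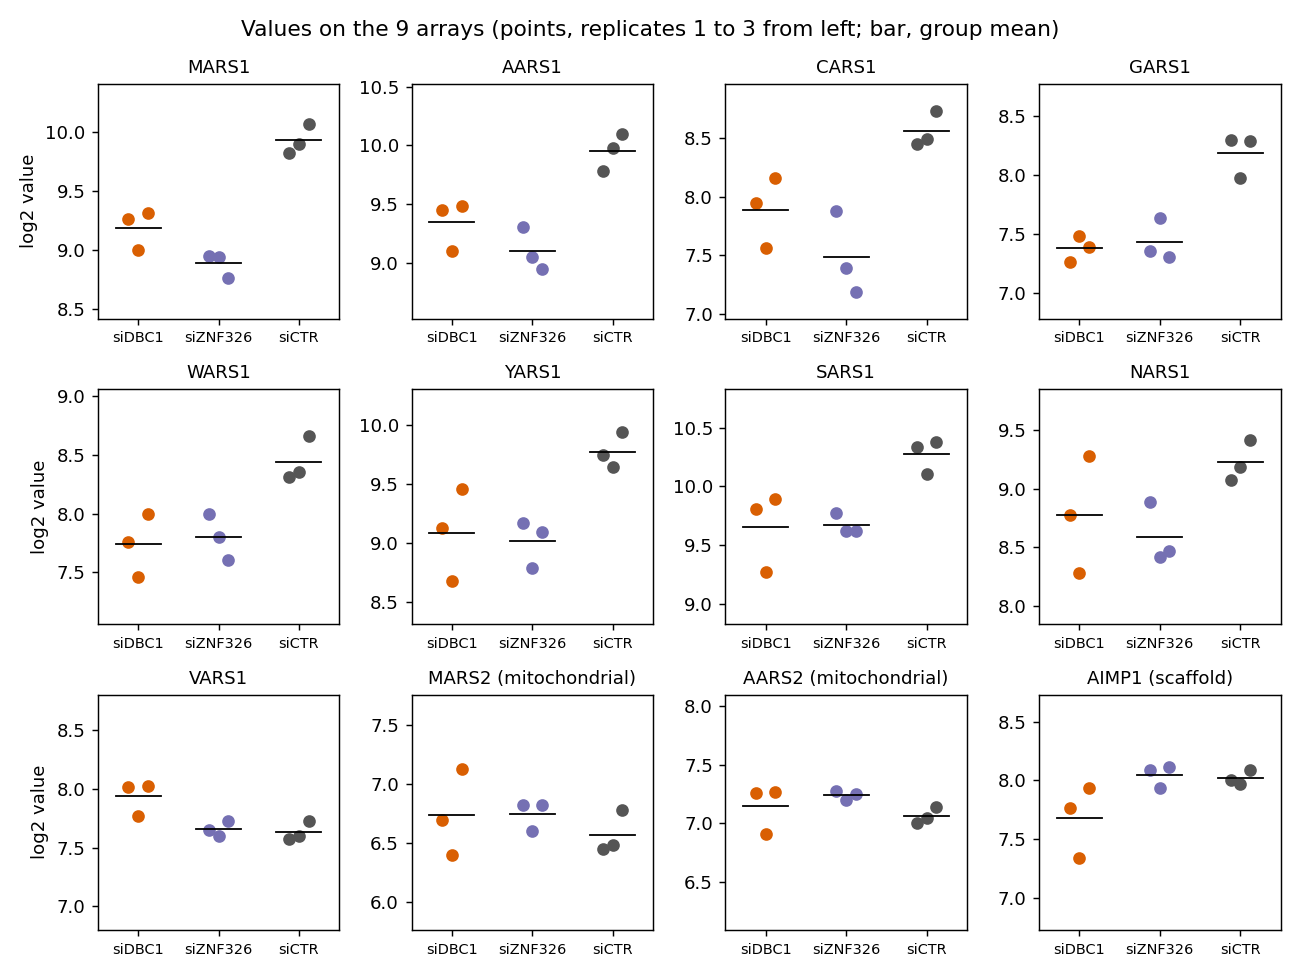
Log2 values on the 9 arrays for 12 members, siDBC1 (left), siZNF326 (middle) and siCTR (right), with the group mean as a bar and the same height of 2 log2 units in every panel. MARS1, AARS1, CARS1, GARS1, WARS1, YARS1 and SARS1 are below siCTR on all 6 siRNA arrays, and MARS2, AARS2 and AIMP1 are not.

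The remaining reported targets also had negative differences. IARS1 and LARS1, which charge isoleucine and leucine tRNAs in the multi-synthetase complex, had differences of -0.37 and -0.58 in siDBC1 and of -0.51 and -0.43 in siZNF326. TARS1, threonyl-tRNA synthetase, had -0.43 and -0.45. EPRS1, the fused enzyme that charges glutamate and proline tRNAs, had -0.45 and -0.24, the smallest difference of the 12 in siZNF326. On siDBC1 replicate 2 each of these genes had its lowest value of the 9 arrays except IARS1, which was lower still on siZNF326 replicate 3, and on siDBC1 replicate 3 each reached into the siCTR range.

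Synthetases outside that list showed no shared direction. VARS1, valyl-tRNA synthetase, had 8.01, 7.77 and 8.03 in siDBC1, 7.65, 7.60 and 7.72 in siZNF326 and 7.57, 7.60 and 7.72 in siCTR. Its siDBC1 arrays lay above siCTR, by 0.30 on average (95% interval 0.085 to 0.52, adjusted p = 0.630), and its siZNF326 arrays overlapped siCTR (0.025, 95% interval -0.19 to 0.24). FARSA, the catalytic subunit of phenylalanyl-tRNA synthetase, differed by 0.19 in siDBC1 and -0.14 in siZNF326. HARS1, histidyl-tRNA synthetase, differed by 0.28 and 0.43, with a 95% interval of -0.0023 to 0.86 in siZNF326. QARS1, glutaminyl-tRNA synthetase, differed by -0.22 and -0.11, and RARS1, arginyl-tRNA synthetase, by -0.040 and 0.23. The 95% intervals of FARSA, HARS1, KARS1, QARS1 and RARS1 included 0 in both comparisons.

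Cytosolic synthetases both inside and outside the multi-synthetase complex had negative medians. The 7 measured synthetases of the complex had a median change of -0.37 in siDBC1 and -0.24 in siZNF326, with members from -0.74 to -0.040 and from -1.05 to 0.23. The 11 outside it had medians of -0.61 and -0.63, with members from -0.81 to 0.30 and from -1.07 to 0.43. By structural class, 10 class I enzymes had medians of -0.52 and -0.47, and 8 class II enzymes -0.44 and -0.53. AIMP1, the scaffold protein that also gives rise to a secreted cytokine, had 7.77, 7.34 and 7.93 in siDBC1, 8.09, 7.93 and 8.11 in siZNF326 and 8.01, 7.97 and 8.08 in siCTR. Its siDBC1 arrays lay below siCTR, with a mean difference of -0.34 (adjusted p = 0.806), and the arrays labelled siZNF326 overlapped siCTR (0.024, 95% interval -0.32 to 0.36).

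The mitochondrial synthetases, which charge the tRNAs encoded by mitochondrial DNA, gave differences from -0.25 (LARS2) to 0.54 (FARS2) in siDBC1 and from -0.22 (PARS2) to 0.68 (RARS2) in siZNF326. Of the 12, 5 lay below and 7 above siCTR by their means in siDBC1, and 3 below and 9 above in siZNF326. Of all 14232 genes, 7710 lay above in siDBC1 and 8147 in siZNF326. MARS2, the mitochondrial counterpart of MARS1, had 6.70, 6.40 and 7.13 in siDBC1, 6.83, 6.60 and 6.82 in siZNF326 and 6.45, 6.49 and 6.78 in siCTR, differences of 0.17 and 0.18. AARS2 had 7.26, 6.91 and 7.27 in siDBC1, 7.28, 7.20 and 7.25 in siZNF326 and 7.003, 7.05 and 7.14 in siCTR. AARS2 was among the genes whose arrays labelled siZNF326 lay wholly above siCTR, by 0.18 on average (adjusted p = 0.673). Under the alternatives other than leaving out 1 array, this difference was as low as 0.032. Those of HARS2 and TARS2, 0.23 each as reported, were as low as 0.086 and 0.082. The differences of RARS2 and FARS2 were at least 0.52 and 0.32. CARS2 had 6.91, 6.79 and 7.11 in siDBC1, 7.20, 6.96 and 6.88 in siZNF326 and 6.68, 6.89 and 7.08 in siCTR. WARS2 had 6.37, 5.85 and 6.94 in siDBC1, 6.46, 6.12 and 6.28 in siZNF326 and 6.30, 6.31 and 6.48 in siCTR. NARS2 had 7.20, 6.72 and 7.74 in siDBC1, 7.59, 7.08 and 6.69 in siZNF326 and 7.20, 7.11 and 7.35 in siCTR. For CARS2, WARS2 and NARS2 the groups overlapped, and in siDBC1 replicate 2 was the lowest and replicate 3 the highest for each.

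RARS2 and FARS2 had the largest positive differences of the 31 members in siZNF326. RARS2, the mitochondrial arginyl-tRNA synthetase, had 7.09, 6.11 and 7.60 in siDBC1, 7.80, 7.38 and 7.28 in siZNF326 and 6.94, 6.59 and 6.88 in siCTR. Its arrays labelled siZNF326 lay above siCTR (0.68, 95% interval -0.13 to 1.49, adjusted p = 0.640), and its siDBC1 arrays spread over both sides. FARS2, the mitochondrial phenylalanyl-tRNA synthetase, had 5.83, 5.003 and 6.38 in siDBC1, 6.06, 5.52 and 5.52 in siZNF326 and 5.07, 5.05 and 5.48 in siCTR, differences of 0.54 and 0.50. Neither passed, and FARS2 was the only member not above the median of every array.

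The medians of whole sets moved with the array as well as with the group. Measured from the mean of siCTR, the cytosolic median stood at -0.40, -0.85 and -0.083 on the 3 siDBC1 arrays, -0.23, -0.56 and -0.63 on the arrays labelled siZNF326 and -0.034, -0.085 and 0.11 on the siCTR arrays. The mitochondrial one was 0.040, -0.41 and 0.32, then 0.29, 0.064 and 0.11, then -0.031, -0.079 and 0.12 in the same order. Subtracted within each array, the cytosolic median was below the mitochondrial one by a similar amount on all siDBC1 arrays (-0.44, -0.44 and -0.40), also on the arrays labelled siZNF326 (-0.52, -0.63 and -0.74), and by little on the siCTR arrays (-0.0028, -0.0062 and -0.0094). Within the cytosolic set the median of the reported targets minus that of the others was -0.62, -0.66 and -0.65 in siDBC1. It was -0.58, -0.60 and -0.76 in siZNF326, and -0.043, -0.0089 and 0.048 in siCTR. The siCTR values of both differences lie near 0 by construction, since distances were measured from the siCTR mean. Only their spread is informative. Left alone, the cytosolic median change of -0.45 in siDBC1 was -0.21 without replicate 2 and -0.67 without replicate 3, and the mitochondrial one of 0.011 was 0.20 and -0.18. The difference of the cytosolic and mitochondrial medians was -0.46 in siDBC1, with -0.41 and -0.49 under the same omissions, and -0.65 in siZNF326.

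**Figure D3:**
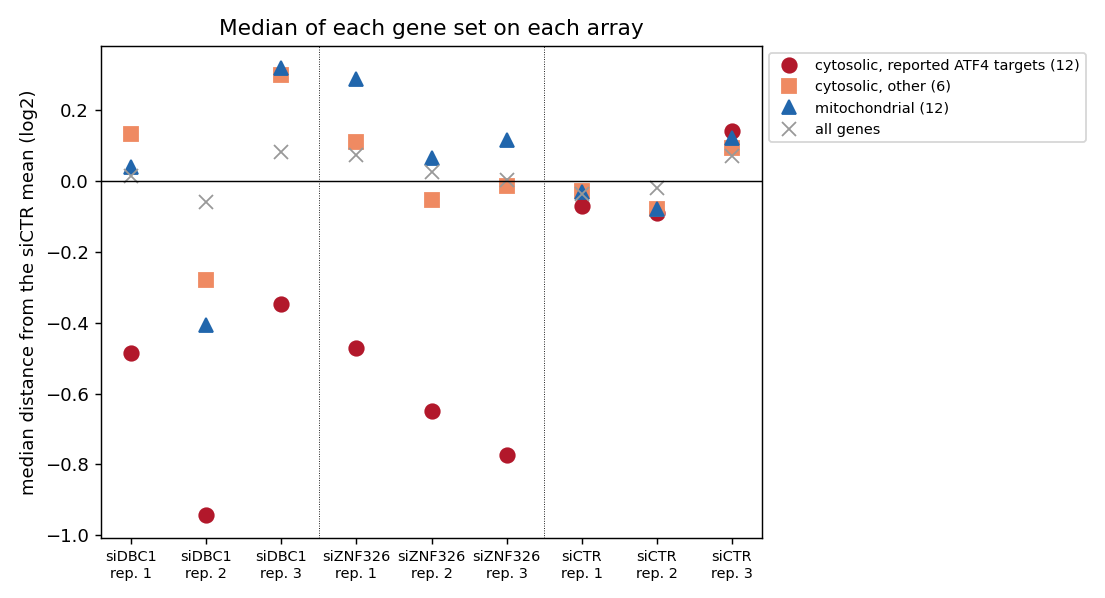
Median distance from the siCTR mean, in log2 units, of 4 gene sets on each of the 9 arrays, siDBC1, siZNF326 and siCTR from left. The mitochondrial and the other cytosolic synthetases follow each other from array to array, and the 12 reported ATF4 targets lie below them on all 6 siRNA arrays, including siDBC1 replicates 2 and 3.

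Cytosolic and mitochondrial enzymes for the same amino acid could be paired in 12 cases. The cytosolic member's change minus that of its partner was negative in both comparisons for every pair but HARS1 and HARS2, with medians of -0.41 and -0.59. The gap was widest for MARS1 and MARS2 in both (-0.91 and -1.22). In siZNF326 CARS1 and CARS2 (-1.20) and AARS1 and AARS2 (-1.03) followed, and in siDBC1 these pairs (-0.72 and -0.69) were close to WARS1 and WARS2 (-0.72). Within the array, AARS1 minus AARS2 stood at -0.70, -0.70 and -0.68 in siDBC1, -0.86, -1.04 and -1.19 in siZNF326 and -0.11, 0.037 and 0.071 in siCTR, each less the siCTR mean. Both siRNA groups of this pair lay below siCTR on every array. The within-array difference lay below all siCTR arrays for 8 of 12 pairs in siDBC1 and for 10 of 12 in siZNF326, and above them for HARS1 and HARS2 in siDBC1. No share over the whole table was computed for differences between probe sets, so these counts have no background to be read against. The 3.66% and 5.27% given above are for single probe sets and do not serve, since a within-array difference removes shifts common to both genes. HARS1 and HARS2, the pair with a shared promoter region, was the exception in sign in both comparisons (0.30 and 0.20).

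**Figure D4:**
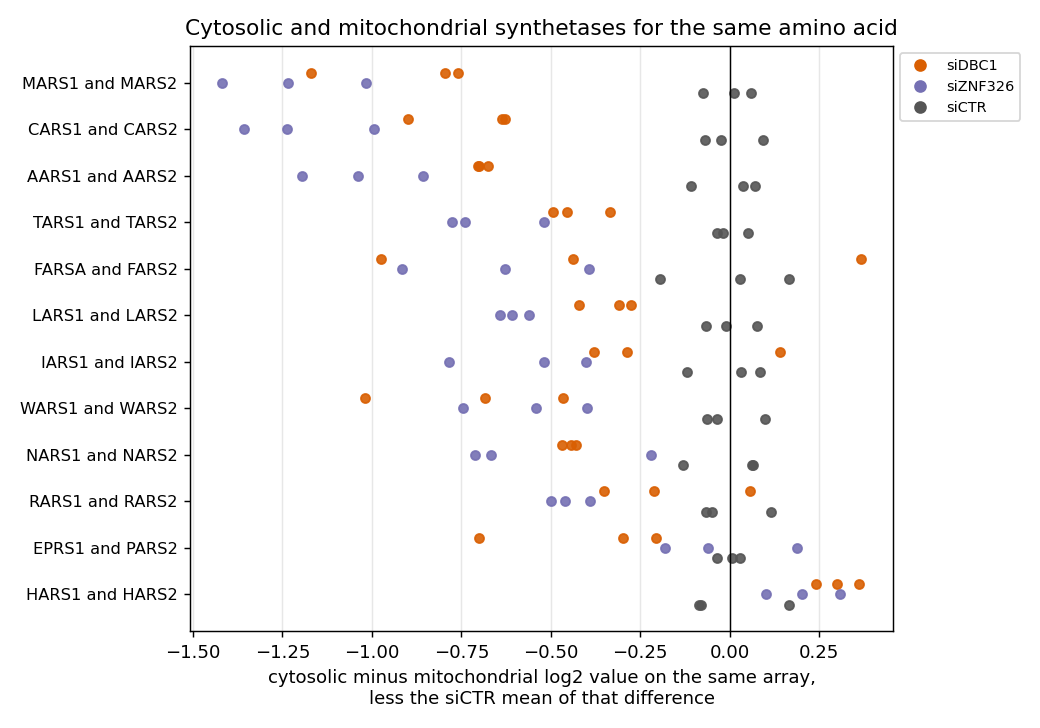
Cytosolic minus mitochondrial log2 value on each array, less its siCTR mean, for 12 pairs of synthetases (3 arrays per group; siDBC1 above, siZNF326 in the middle, siCTR below in each row). For MARS1, CARS1 and AARS1 with their partners the 6 siRNA arrays lie between -1.42 and -0.63, and for HARS1 and HARS2 they lie above 0.

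Grouped by promoter letters, the 7 cytosolic synthetases with the core TGATGNAA had changes from -0.81 to -0.37 in siDBC1 (median -0.61) and from -1.07 to -0.45 in siZNF326 (median -0.76). The 8 with a window but no match had changes from -0.70 to 0.28 (median -0.17) and from -0.64 to 0.43 (median -0.13). WARS1 and SARS1, with differences of -0.70 and -0.62 in siDBC1, were among these 8. Of the 3 without a window, LARS1 and YARS1 had negative changes in both comparisons and VARS1 did not. This grouping was made with the changes known and carries no test.

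**Figure D5:**
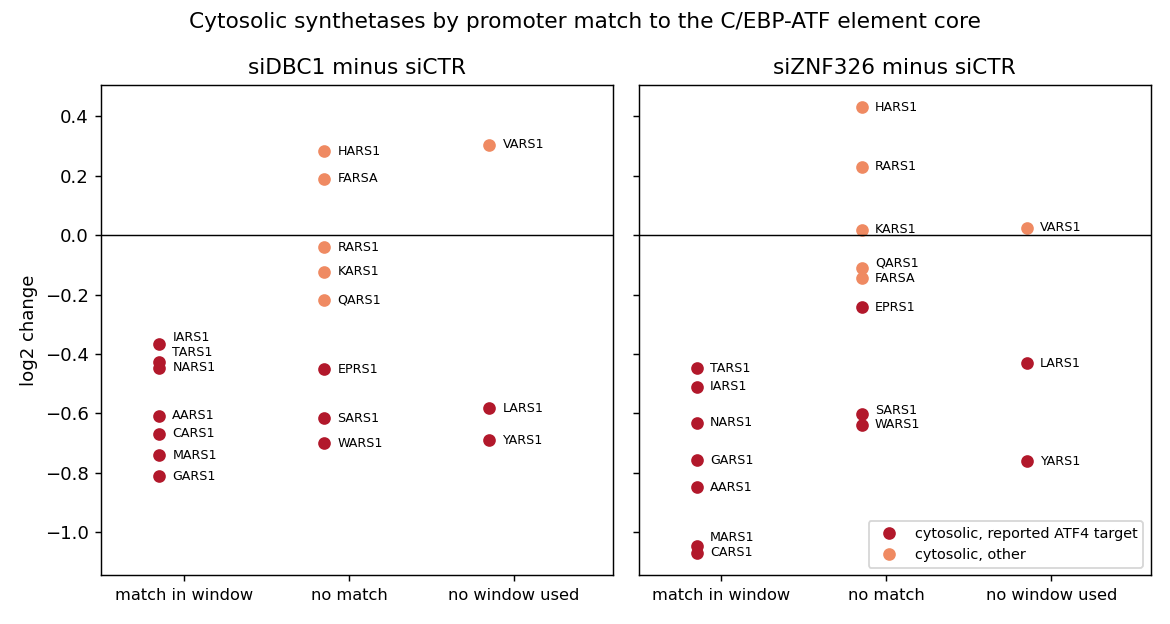
Log2 change of 18 cytosolic synthetases in siDBC1 and in siZNF326, each minus siCTR, by whether the promoter window held the searched core (7 genes), did not (8) or was not used (3), coloured by the list of reported ATF4 targets. The 7 genes with a match lie at -0.37 or lower in both panels, and genes without one spread over both sides of 0.

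Between the siRNA groups, siZNF326 against siDBC1, 0 of 31 members passed the adjusted threshold in limma, as did 0.00909% of all probe sets. At an unadjusted p below 0.05, MARS1, FARSA and VARS1 were lower in siZNF326 (2.43% of all probe sets) and AIMP1 was higher (4.88% of all probe sets). The differences were -0.31 for MARS1 (95% interval -0.57 to -0.039), -0.33 for FARSA (-0.55 to -0.12), -0.28 for VARS1 (-0.50 to -0.060) and 0.36 for AIMP1 (0.023 to 0.70), with adjusted p from 0.608 to 0.678. For GARS1 the difference was 0.055 with a 95% interval from -0.25 to 0.36, and for SARS1 0.012 with one from -0.37 to 0.40. The cytosolic median differed by -0.0037 and the mitochondrial one by 0.086.

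Other genes of the tRNA and translation pathways were taken from lists. Of 28 measured genes of the ATF4 program outside charging, 27 lay below siCTR in siDBC1 and all 28 in siZNF326, with medians of -0.90 and -0.96. Of these, 2 were called lower in siDBC1 and 8 in siZNF326 (0.0363% and 0.15% of all probe sets in either direction). CHAC1, which degrades glutathione, fell by 1.46 in siDBC1 and by 2.19 in siZNF326 (adjusted p = 0.0116 and 0.00133), and ASNS, asparagine synthetase, fell by 1.04 (adjusted p = 0.0494) and 1.24 (adjusted p = 0.0200). SLC6A9, a glycine transporter, and SLC7A5, the leucine transporter, fell in siZNF326 by 0.92 (adjusted p = 0.0176) and 1.50 (adjusted p = 0.0200). ATF4 itself differed by 0.0070 in siDBC1 (95% interval -0.27 to 0.28) and by -5.33e-05 in siZNF326 (-0.28 to 0.28).

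Of 13 related charging enzymes and factors, 0 were called by limma in either comparison with siCTR, and at an unadjusted p below 0.05 0 were lower in siDBC1 and 1 in siZNF326. That gene was SEPHS1, a selenophosphate synthetase paralog, at -0.63 in siZNF326 (adjusted p = 0.0577). Of 38 genes of tRNA transcription, processing, modification and export, 28 lay above siCTR in siDBC1 and 30 in siZNF326, as did 7710 and 8147 of all 14232 genes. This list had medians of 0.11 and 0.13, and 0 of its genes were called. TSEN15, a subunit of the tRNA splicing endonuclease, went the other way at -0.88 and -0.74 (adjusted p = 0.423 and 0.338). Of 8 mitochondrial translation factors 0 were called and their medians were 0.0039 and 0.0031, with TUFM, the mitochondrial elongation factor Tu, at -0.017 and -0.40 (adjusted p = 0.314 in siZNF326). Of 15 genes of eIF2, its exchange factor, kinases and phosphatase regulators, 0 were called, with medians of 0.024 and 0.17. PPP1R15A, a stress-induced regulator of eIF2 dephosphorylation that is itself downstream of ATF4, stood at -0.46 and -0.55 (adjusted p = 0.518 and 0.232). Of 5 measured cytosolic elongation factors 0 were called, with medians of 0.060 and -0.0041. At an unadjusted p below 0.05 in limma the last 4 lists had 1 gene lower and 3 higher (tRNA processing), 0 (mitochondrial factors), 1 lower (eIF2) and 0 (elongation) in siDBC1, and 1 lower and 5 higher, 1 lower, 1 lower and 1 lower in siZNF326. Over all probe sets 2.55% were lower and 3.63% higher in siDBC1, and 2.52% lower and 6.13% higher in siZNF326.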

How the data were processed

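The authors deposited log2 values from RMA, per the submitters' processing notes, which also name build hg18. The log base is taken from RMA, and values ran between 0.333 and 13.4. For RMA, no version or filter is given in the sources used here. The labels' protocols describe column-purified, DNase-treated total RNA, reduced in ribosomal RNA. Precision is limited by the number of arrays.

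The annotation gave 1 symbol for 14432 of 22011 probe sets, several for 2408 and none for 5171, and genes were named only from the 14432. limma 3.58.1 in R 4.3.3 (lmFit with a mean per group, eBayes, two-sided moderated tests) was fitted to every probe set of the 9 arrays, without filter or rescaling. The fit was also run on simulated data. Noise there was independent for each probe set and array, so shifts of whole arrays were not covered. A call is an adjusted p below 0.05 (Benjamini-Hochberg, per comparison). Errors are SDs of 3 arrays or standard errors of the model. Promoter windows came from RefSeq (GRCh38.p14).

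The members, lists, tests and alternatives were chosen with earlier results of these data known. Values on every array are given for called members, for the 8 smallest p per comparison with siCTR, for scaffold proteins and for mitochondrial partners, and up to 4 genes per pathway list by smallest p. RARS2 and FARS2 were chosen after their values were seen, and so were the other members described by their differences. Alternatives were quantile normalization, median centring, a filter on low values, eBayes with trend, 2-group fits, a replicate block and leaving out arrays.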

Additional observations from a re-analysis of the deposited data

How the results depend on the processing

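Calls depended on the scaling and on single arrays. The distance between the cytosolic and mitochondrial medians kept its sign in both comparisons with siCTR after quantile normalization and under every omission of arrays. Median centring, the filter on low values and the replicate block could not alter this distance, so they are no check of it. Centring moves all genes of an array alike, the filter removed no member, and each replicate number occurs once per group. The distance was not recomputed for eBayes with trend or the 2-group fits. In siDBC1 against siCTR the number of members called, 0 as reported, was 1 with arrays centred on their medians (MARS1) and 2 after quantile normalization (MARS1 and WARS1), and 0 without any 1 array. In siZNF326 against siCTR it was 1 as reported, 4 with centred arrays (MARS1, AARS1, CARS1 and WARS1), 6 after quantile normalization (these, SARS1 and YARS1), and 0 with only the 2 groups compared, with the 3 arrays that stood apart left out (siDBC1 replicates 2 and 3 and siZNF326 replicate 1, chosen after seeing the data) or with a replicate block. It was 0 to 1 without 1 array. With the replicate block MARS1 kept its change and had an adjusted p = 0.133. Residuals of arrays that share a number correlated between -0.30 and 0.40, above 0.1 in 3 of 9 pairs. For arrays with different numbers they correlated between -0.57 and 0.61, above 0.1 in 5 of 18 pairs. These values do not settle whether arrays with the same number belong together. Over the whole table the count was 8 as reported in siDBC1, 69 after quantile normalization, 46 with centred arrays, 4 with eBayes trend and 0 with the block or only 2 groups. In siZNF326 it was 33 as reported, and 196, 119, 35, 1 and 5 under the same settings. With the block, 11 members were lower in siDBC1 at an unadjusted p below 0.05, against 7 as reported.

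The difference of the set medians, added to the plan, was -0.46 in siDBC1, -0.42 after quantile normalization, -0.44 without the 3 arrays and -0.50 to -0.41 without 1 array. In siZNF326 it was -0.65, -0.69 to -0.58 without 1 array, and -0.69 to -0.56 under the other settings, quantile normalization among them. Reported targets minus other cytosolic synthetases gave -0.69 in siDBC1, -0.62 without the 3 arrays and -0.73 to -0.65 without 1 array. The mitochondrial median in siZNF326 was 0.17 as reported and 0.030 after quantile normalization. The cause of these shifts was not tested. No called member changed sign. Each measured member had 1 probe set of its own, so averaging probe sets changed nothing.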
